A study of Medicago ruthenica with 9 samples.

Results

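The miR156 family was followed through drought and rewatering in leaves of *Medicago ruthenica*, a forage legume related to alfalfa. Its members are 8 names of the deposited miRNA table, out of 595 names in all and 17 names of families miR156 and miR157. They were chosen by name, with earlier results of these data known. The set holds 4 guide strands (mtr-miR156b-5p, mtr-miR156g-5p, gma-miR156c and gma-miR156b_L+1R-1) and 4 strands of the opposite hairpin arm (mtr-miR156g-3p, mtr-miR156c-3p, mtr-miR156i-3p and mtr-MIR156e-p3). The prefixes mtr and gma name the species, *M. truncatula* and soybean, whose entry the read resembled, L and R give bases added (+) or missing (-) at the left or right end, and a name with MIR and p3 marks a strand found on the 3p arm of a known hairpin.

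Small RNA was sequenced from 9 leaf samples, 3 biological replicates for each of 3 groups, from seedlings that were 4 weeks old when treatments began. Rewatered plants (RW) went 15 days without water and were collected 2 days after watering resumed. Drought-stressed plants (DS) went the same 15 days without water, and control plants (CK) were watered throughout. All groups were seedlings of 1 cultivar grown several to a pot, and the sources used here do not state which plants made up a replicate. RW leaves were thus also collected later than DS and CK leaves, and rewatering and this delay cannot be told apart. p-values measure the spread between these samples.

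In plants, miR156 is cut from hairpin precursors as a short duplex. The guide strand is loaded into an ARGONAUTE protein and directs the cleavage and repression of mRNAs of SQUAMOSA PROMOTER BINDING PROTEIN-LIKE (SPL) transcription factors, while the opposite strand, the star or passenger strand, is usually degraded. miR156 is abundant in juvenile leaves and declines as a plant ages, which lets SPL proteins rise and promote adult leaf traits and flowering. In *Arabidopsis*, SPL proteins also activate miR172 genes, so that the pair of miRNAs mark opposite ends of the same age pathway.

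Plant miRNAs recognise their targets by pairing along nearly their whole length, and the 4 guides are shown first because they differ at few positions. Sequences are from the deposited table (T for U), 5′ to 3′, with bases 2 to 8, the seed, in capitals.
mtr-miR156b-5p: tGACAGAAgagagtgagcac
mtr-miR156g-5p: tTGACAGAagatagagggcac
gma-miR156c: tTGACAGAagatagagagcac
gma-miR156b_L+1R-1: tTGACAGAagagagagagcac
By these bases they fell into 2 groups that differ only by a shift of 1 base along the same sequence. mtr-miR156g-5p, gma-miR156c and gma-miR156b_L+1R-1 shared the seed TGACAGA, and mtr-miR156b-5p, which starts 1 base further in, had GACAGAA. All 4 held the run TGACAGAAGA, which was found in 9 of the 595 names (1.51%), all of them of families miR156 or miR157. Counted from the 5′ end of the first-named strand, mtr-miR156g-5p and gma-miR156c differed by G17A alone, gma-miR156c and gma-miR156b_L+1R-1 by T12G alone, and mtr-miR156b-5p and gma-miR156b_L+1R-1 by T14A alone within their 20 shared positions. Such near-identical strands can share reads in an alignment that allows 1 mismatch, so their separate values are less certain than their sum.

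The 4 strands of the 3p arm are shown because most pairs of them, aligned without gaps, differed far more than the guides did. Their values are compared with the guides below.
mtr-miR156g-3p: gCTCTCTAgacttctgtcatc
mtr-miR156c-3p: tGCTTACTctctatctgtcacc
mtr-miR156i-3p: tGCTCACTtctctttctgtcatc
mtr-MIR156e-p3: tTGTGCTCtctatgcttctgtc
No 2 of them shared a seed. The longest run common to all 4 was TCTGTC, which 8 of the 595 names (1.34%) held, 5 of them of families miR156 or miR157. In ungapped alignment mtr-miR156c-3p and mtr-miR156i-3p were identical at 13 of 22 positions. mtr-miR156g-3p and mtr-MIR156e-p3 were identical at 16 of 18 shared positions but were offset by 4 bases.

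Among the 8 members, the table places both arms on the same assembled transcript in 4 cases. mtr-miR156g-5p and mtr-miR156g-3p lay on transcript DN12407_c0_g2, gma-miR156c and mtr-MIR156e-p3 on DN12407_c0_g1, mtr-miR156b-5p and mtr-miR156c-3p on DN15086_c0_g1, and mtr-miR156b-5p and mtr-miR156i-3p on DN21205_c0_g4. The value of mtr-miR156b-5p is therefore not divided between 2 transcripts. All 21 bases of gma-miR156c also begin a name of family miR157 on DN22590_c0_g2, so its reads need not come from DN12407_c0_g1 alone. gma-miR156b_L+1R-1, on DN23571_c0_g1, had no 3p partner in the table. Transcript names are those of the authors' assembly, and chromosome positions are not used here.

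Each pair could form a duplex by its bases (RNAduplex). mtr-miR156b-5p paired with mtr-miR156c-3p at 19 positions (-29.5 kcal/mol) and with mtr-miR156i-3p at 19 positions (-28.0 kcal/mol), in both cases with a protruding 3′ end of 2 bases on the 3p strand and 1 on the guide. A Dicer-like cut typically leaves 2 bases at each 3′ end. mtr-miR156g-5p paired with mtr-miR156g-3p at 17 positions (-27.2 kcal/mol), with a protruding 3′ end of 1 base on the 3p strand and 2 on the guide. gma-miR156c paired with mtr-MIR156e-p3 at 19 positions (-29.9 kcal/mol), but there the 3′ ends of both strands fell 2 bases short of the partner's 5′ end.

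The table summed to between 1237470 and 1718280 normalised read counts per library. Low values lay on steps of 1 size within a library, 0.460 to 0.617 in RW, 0.788 to 0.892 in DS and 0.252 to 0.310 in CK, so that DS libraries had the coarsest values. The smallest value above 0 was 2.30 to 3.09 in RW, 3.94 to 4.21 in DS and 0.652 to 1.55 in CK. All 8 members were above 0 in all 9 libraries and passed the filter on low values. RNA-fragment-like families (miR5368, miR2916, miR6300 and miR3630) were taken here as a sign of RNA quality. They took 1.80 to 2.35% of the table in RW, 1.08 to 2.28% in DS and 0.482 to 0.609% in CK. Their share was higher in every RW and DS library than in every CK library. The paper lists names of these families as differentially expressed. Whether their share followed RNA quality or the treatment was not tested. The 8 members together took 0.172 to 0.351% in RW, 0.344 to 0.510% in DS and 0.253 to 0.385% in CK. In whole leaves, fewer cells of a type and less RNA per cell cannot be told apart.

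mtr-miR156b-5p and mtr-miR156g-5p made up most of the guide pool. mtr-miR156b-5p had 978, 913 and 1502 normalised read counts in RW, 2213, 1640.4 and 2329 in DS, and 1438, 1892 and 1708 in CK. All 3 RW values lay below all 3 DS values, and RW replicate 3 overlapped the CK range. mtr-miR156g-5p had 931, 948 and 1365 in RW, 1340.2, 1238.5 and 1441 in DS, and 1195, 1553 and 1696 in CK. RW replicates 1 and 2 were the lowest of the 9 libraries, whereas RW replicate 3 lay within the DS and CK ranges.

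The other guides were about an order of magnitude lower. gma-miR156c had 133, 127 and 216 in RW, 279, 206 and 187 in DS, and 197, 213 and 147 in CK, with all groups overlapping. gma-miR156b_L+1R-1 had 93.0, 141 and 98.7 in RW, 249, 453 and 177 in DS, and 87.1, 221 and 273 in CK. Its RW values were all below its DS values, and its lowest value was CK replicate 1. Its SD in DS was 48.9% of the mean, and in CK 49.5%, the widest spread among the guides in either group.

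On the 3p arm, mtr-miR156c-3p stood far above the rest. It had 806, 627 and 930.4 in RW, 1078, 1244 and 2524 in DS, and 713, 666 and 688 in CK. Every DS value was above every RW and CK value, and DS replicate 3 was well above the other DS values (the SD in DS was 49.0% of the mean). The CK values were close together (689 ± 23.5, SD, n = 3). A near-identical name, aly-miR156e-3p_L+1, was listed at 684 in CK replicate 2 and is treated below.

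mtr-MIR156e-p3 was also highest in DS. It had 62.6, 26.6 and 97.5 in RW, 248, 234 and 466 in DS, and 94.96, 105 and 66.9 in CK. All DS values lay above all RW and CK values, and RW and CK overlapped. DS replicate 3 was again the highest library and RW replicate 2 the lowest.

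mtr-miR156g-3p had 94.8, 163 and 155 in RW, 58.3, 99.4 and 46.4 in DS, and 54.8, 91.1 and 116 in CK. RW replicates 2 and 3 were the highest libraries, and DS replicate 2 and CK replicate 3 lay above RW replicate 1. mtr-miR156i-3p was the lowest member, with 16.6, 11.7 and 29.6 in RW, 12.6, 16.9 and 25.0 in DS, and 23.0, 20.5 and 9.56 in CK. These values amount to 16 to 88 steps of their libraries, and the groups overlapped fully.

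**Figure D1:**
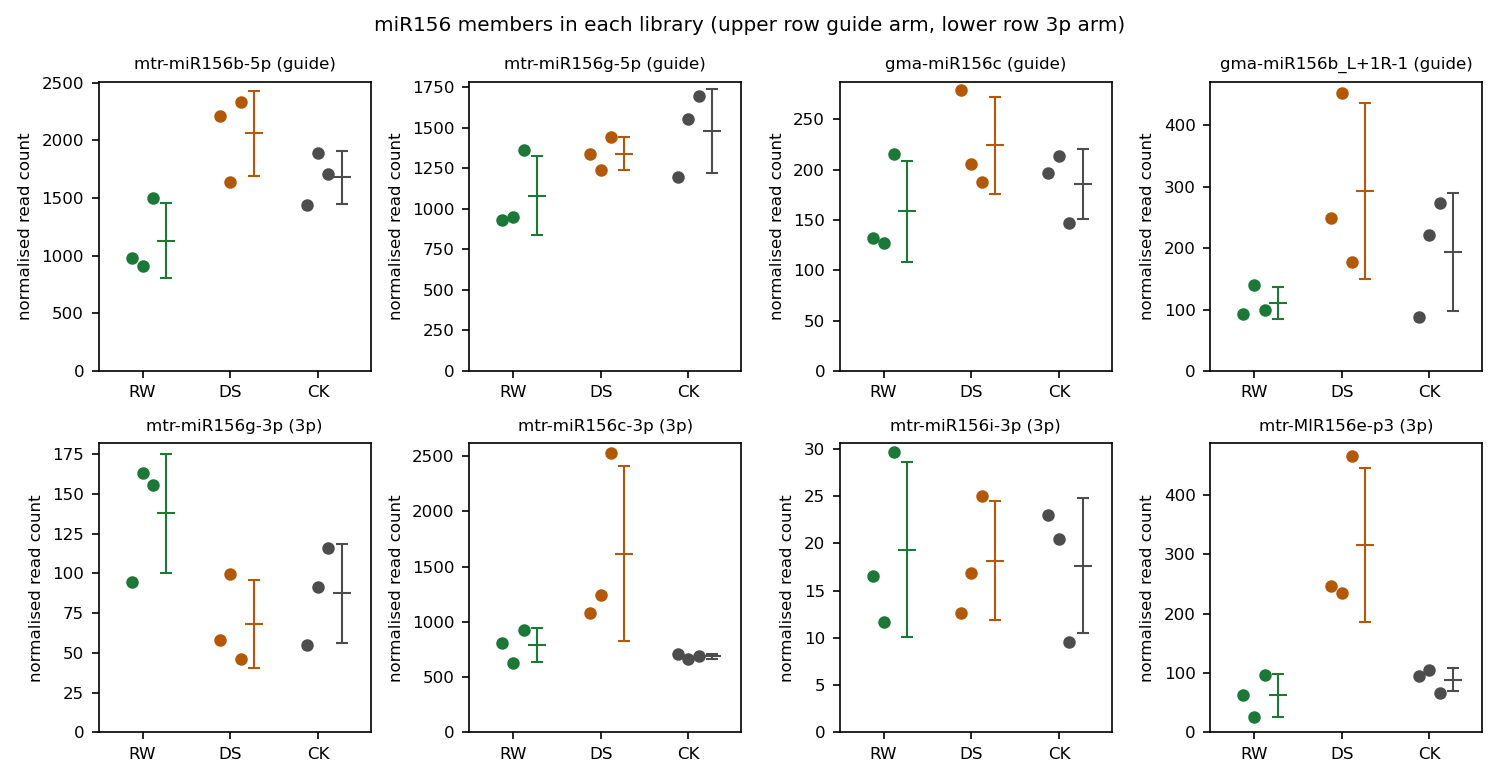
Normalised read counts (y axis, from 0, a scale per panel) of the 4 guides (upper row) and 4 3p strands (lower row) in RW, DS and CK. Points are libraries, and the bar beside them is the mean ± SD (n = 3). mtr-miR156c-3p and mtr-MIR156e-p3 had all 3 DS points above the RW and CK points, while mtr-miR156b-5p had all 3 RW points below the DS points.

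By mean over the 9 libraries the members ranked mtr-miR156b-5p (1624), mtr-miR156g-5p (1301), mtr-miR156c-3p (1031), gma-miR156b_L+1R-1 (199), gma-miR156c (189), mtr-MIR156e-p3 (155.7), mtr-miR156g-3p (97.7) and mtr-miR156i-3p (18.4). The first 7 took ranks 25, 27, 30, 70, 71, 74 and 96 among the 595 names. Neighbours in this order overlapped in their ranges over the libraries, except mtr-miR156g-3p and mtr-miR156i-3p. mtr-miR156c-3p and gma-miR156b_L+1R-1 did not overlap either. A strand of the usually degraded arm, mtr-miR156c-3p, was thus among the 3 most abundant members, and in DS replicate 3 it was the highest of all 8.

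Differences were tested in 1 limma fit over all 339 names with enough signal, and fold changes are on the log2 (value + 1) scale with p-values adjusted by Benjamini-Hochberg over these names. In RW vs. DS, mtr-MIR156e-p3 fell by 2.43 (SE 0.49, 95% interval -3.51 to -1.36, limma adjusted p = 0.0199). It averaged 62.2 ± 35.4 in RW and 316 ± 130.1 in DS (SD, n = 3 each). It was the only member of the 8 that passed in any of the 3 comparisons, against 2.36% of all names tested that passed in RW vs. DS. The limma adjusted p missed the threshold without DS replicate 3 (0.0890), RW replicate 1 (0.0630) or RW replicate 2 (0.0780), in a fit of RW and DS alone (0.0919), and with scaling to the table total (0.0535) or to the upper quartile (0.0534). Over 22 alternatives the limma fold change lay between -2.84 and -1.79 and the adjusted p between 0.0135 and 0.0919, and 16 of them passed.

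The other members in RW vs. DS did not pass. The values were -0.88 for mtr-miR156b-5p (SE 0.27, limma adjusted p = 0.145), -0.95 for mtr-miR156c-3p (SE 0.33, limma adjusted p = 0.214) and -1.31 for gma-miR156b_L+1R-1 (SE 0.48, limma adjusted p = 0.234). With mtr-MIR156e-p3, these are the 4 members whose RW and DS libraries did not overlap, all lower in RW, against 15.3% of names tested. mtr-miR156g-3p had a value of 1.04 (SE 0.43, limma adjusted p = 0.281), on the opposite side of 0. Before adjustment 5 of the 8 members had a limma p under 0.05, against 14.2% of names tested. The remaining intervals, -0.88 to 0.22 for mtr-miR156g-5p, -1.25 to 0.21 for gma-miR156c and -1.21 to 1.29 for mtr-miR156i-3p, all included 0.

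In RW vs. CK no member passed in limma, against 5.31% of names tested. Before adjustment 1 member, mtr-miR156b-5p, had a limma p under 0.05, against 15.6%, and no member had groups that did not overlap, against 21.2%. mtr-miR156b-5p averaged 1131 ± 323 in RW and 1679.5 ± 228 in CK (SD, n = 3 each), a value of -0.60 (SE 0.27, limma adjusted p = 0.317). The 4 guides had values of -0.67 to -0.25, and the 3p strands -0.66 for mtr-MIR156e-p3, 0.11 for mtr-miR156i-3p, 0.17 for mtr-miR156c-3p and 0.68 for mtr-miR156g-3p.

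In DS vs. CK no member passed in limma either, against 5.31% of names tested. Before adjustment 2 of the 8 members had a limma p under 0.05, against 19.5% of names tested. The same 2 had groups that did not overlap, against 28.0% of names tested. Both counts are near the shares over all names. The 2 members were 3p strands, higher in DS. mtr-MIR156e-p3 averaged 316 ± 130.1 in DS and 88.9 ± 19.6 in CK, a log2 value of 1.77 (SE 0.49, 95% interval 0.70 to 2.84, limma adjusted p = 0.0578). It passed in 7 of 22 alternatives, over which the limma adjusted p lay between 0.0227 and 0.547. mtr-miR156c-3p averaged 1615 ± 791 in DS and 689 ± 23.5 in CK, a log2 value of 1.12 (SE 0.33, 95% interval 0.40 to 1.84, limma adjusted p = 0.0706). Its limma adjusted p passed without DS replicate 1 (0.0460), and its sign turned with upper-quartile scaling (-0.32).

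The guides in DS vs. CK had values of -0.13 for mtr-miR156g-5p, 0.27 for gma-miR156c, 0.29 for mtr-miR156b-5p and 0.64 for gma-miR156b_L+1R-1. Their limma intervals all included 0, and the bounds were -0.68 to 0.42 for mtr-miR156g-5p and -0.31 to 0.88 for mtr-miR156b-5p. The median over the 4 guides was 0.28 and over the 4 3p strands 0.60, beside -0.36 over all names tested. The median over all names includes low names, and DS libraries had 283 to 305 names above 0, against 423 to 489 in CK. The part of this difference in that median was not tested. In RW vs. CK the medians were -0.53 for guides and 0.14 for 3p strands, beside -0.11 over all names, and in RW vs. DS they were -0.70 and -0.45, beside 0.16 over all names.

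**Figure D2:**
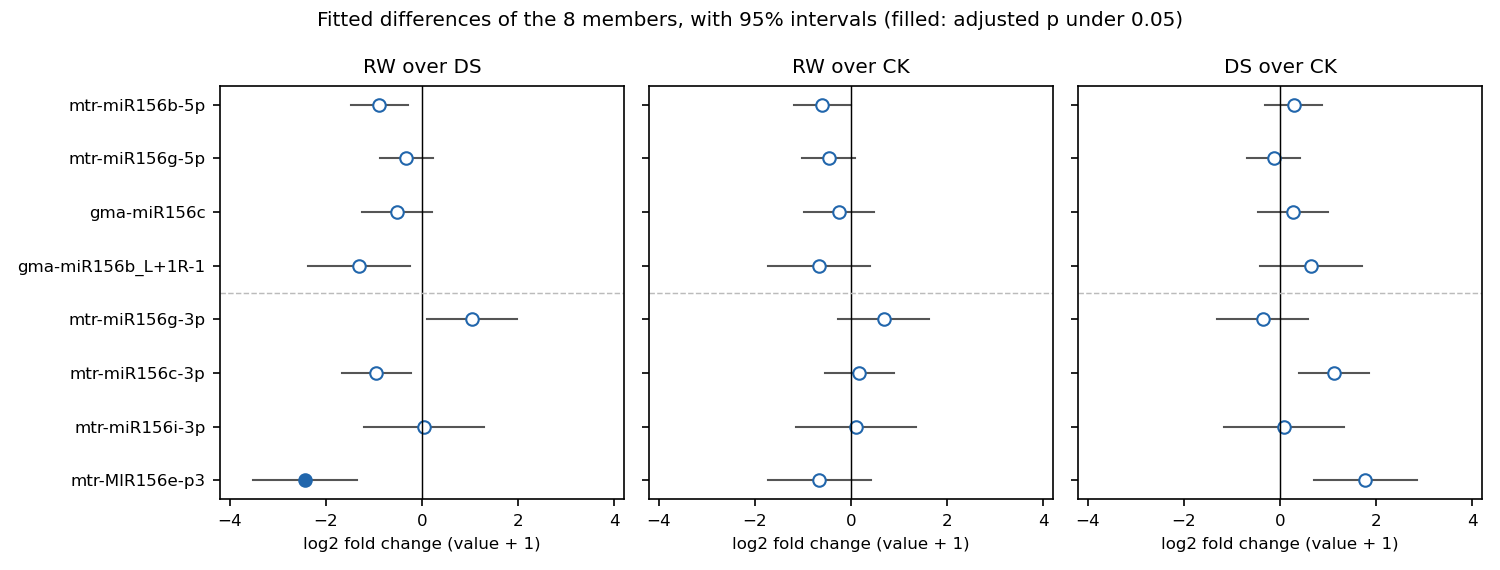
Fitted log2 fold changes (x axis, value + 1) of the 8 members in RW over DS, RW over CK and DS over CK, with 95% intervals as lines. The guides are above the dashed line and the 3p strands below it. Only mtr-MIR156e-p3 in RW over DS (-2.43) has a filled point, an adjusted p under 0.05.

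These fold changes depend on how libraries are scaled to each other. Scaling to the table total or by the median of ratios moved the fold changes by about 0.095 or less on the log2 scale. Upper-quartile scaling over all values above 0 moved them by -1.45 in DS vs. CK, -0.80 in RW vs. CK and 0.64 in RW vs. DS, and a library's number of names above 0 was 347 to 376 in RW, 283 to 305 in DS and 423 to 489 in CK. The same scaling over only the names above 0 in all libraries moved them by 0.31, 0.38 and 0.07. In DS vs. CK, the sign of 3 guides and of mtr-miR156c-3p and mtr-miR156i-3p turned under the first of these.

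**Figure D3:**
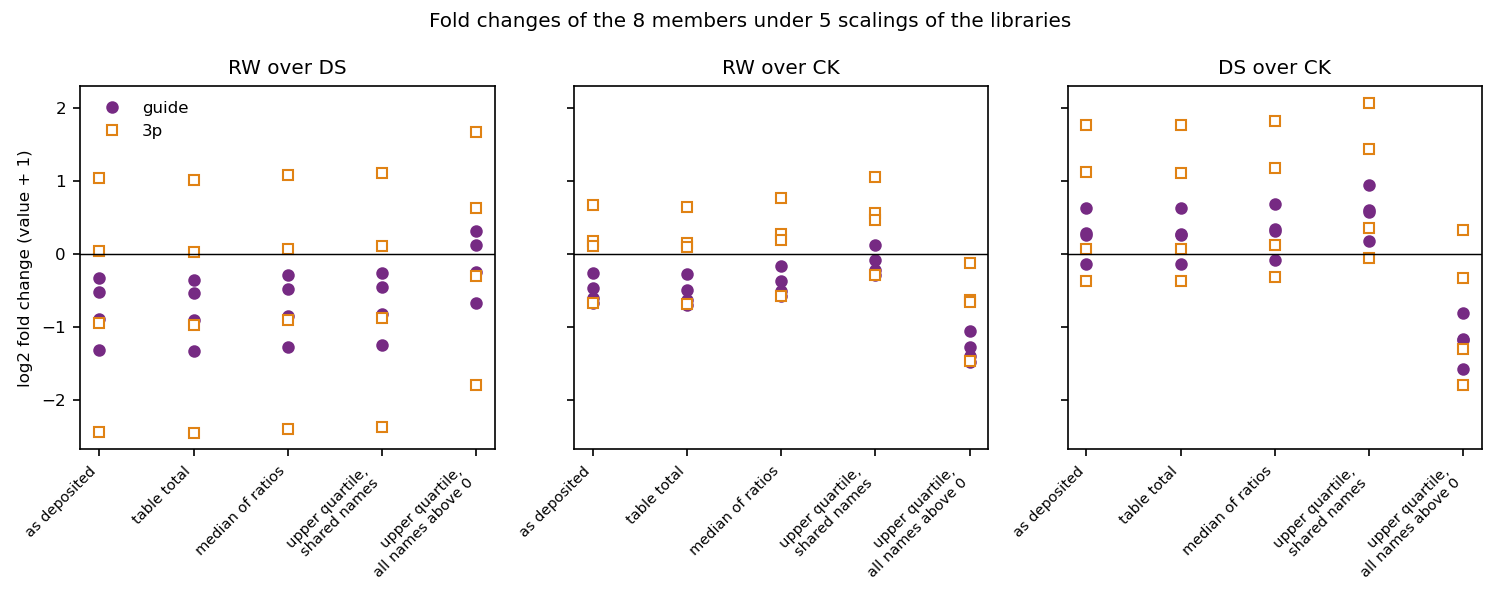
Fitted log2 fold changes (y axis) of the guides (filled circles) and 3p strands (open squares) under 5 scalings of the libraries (x axis), for the 3 comparisons. The first 3 scalings gave almost the same values, and the upper quartile over all names above 0 moved every member down in DS over CK and in RW over CK.

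The ratio of one arm to the other within a library does not depend on that scaling, so the arms were next compared as ratios, described without a test. The 4 guides summed to 2134, 2128 and 3181 in RW, 4081, 3538 and 4133 in DS, and 2917, 3879.8 and 3823 in CK. The 4 3p strands summed to 980.3, 828 and 1213 in RW, 1397, 1594 and 3061 in DS, and 886, 883 and 880.5 in CK. The guide to 3p ratio was 2.18, 2.57 and 2.62 in RW, 2.92, 2.22 and 1.35 in DS, and 3.29, 4.40 and 4.34 in CK. Every RW and DS library was thus below every CK library, and RW and DS overlapped. In RW, guides averaged 2481 ± 606, against 3540.1 ± 540.4 in CK, and 3p strands 1007 ± 194, against 883 ± 2.77. In DS, guides averaged 3917 ± 329.8, against the same CK mean, and 3p strands 2017 ± 909 (SD, n = 3 each). The RNA-fragment-like share was higher in the same RW and DS libraries, and its part in the ratio was not tested.

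This order rested on which names were counted as 3p strands. aly-miR156e-3p_L+1, which the rule did not take, lay on the transcript of mtr-miR156c-3p and differed from it by A13C alone, counted from the 5′ end. Both are printed with this base in capitals.
mtr-miR156c-3p: tgcttactctctAtctgtcacc
aly-miR156e-3p_L+1: tgcttactctctCtctgtcacc
It was listed at 684 in CK replicate 2, at 2.61 and 3.52 in the other CK libraries, at 8.64 in RW replicate 3, and at 0 in the other RW libraries and in DS. Added to mtr-miR156c-3p it gave 1350.1 in CK replicate 2, above DS replicates 1 and 2, so that DS and CK then overlapped. With it in the 3p sum, the guide to 3p ratio of CK replicate 2 was 2.48, within the RW and DS ranges, while the other CK libraries stayed at 3.28 and 4.33. With all 17 names of the family the ratio was 2.32 to 2.88 in RW, 1.48 to 3.08 in DS and 2.49 to 4.43 in CK, and the groups overlapped. Here names were counted by arm label alone, whatever their match to the members. The guide sum thus took in csi-MIR156c-p5_2ss3TA18TG, which matched its closest member at only 8 of 18 positions. It was higher in every RW and DS library than in every CK library.

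The ratios of arms placed on the same transcript did not move alike. As stated above, the reads of mtr-miR156b-5p and gma-miR156c need not come from 1 transcript alone. On DN12407_c0_g1, the ratio of gma-miR156c to mtr-MIR156e-p3 was 2.12, 4.76 and 2.22 in RW, 1.13, 0.878 and 0.402 in DS, and 2.07, 2.04 and 2.20 in CK. It was lower in every DS library than in every RW and CK library, and in DS replicates 2 and 3 the 3p strand exceeded the guide. On DN12407_c0_g2, the ratio of mtr-miR156g-5p to mtr-miR156g-3p was 9.82, 5.81 and 8.78 in RW, 23.0, 12.5 and 31.0 in DS, and 21.8, 17.0 and 14.6 in CK. Here every RW library was below every DS and CK library, so the group that stood apart was RW and not DS.

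On DN15086_c0_g1, the ratio of mtr-miR156b-5p to mtr-miR156c-3p was 1.21, 1.46 and 1.61 in RW, 2.05, 1.32 and 0.923 in DS, and 2.02, 2.84 and 2.48 in CK. RW was below CK throughout, and DS replicate 1 just reached the lowest CK library. With aly-miR156e-3p_L+1 added to the 3p strand the CK ratios were 2.01, 1.40 and 2.47, and RW and CK overlapped. On DN21205_c0_g4, the ratio of mtr-miR156b-5p to the scarce mtr-miR156i-3p was 50.7 to 77.9 in RW, 93.2 to 175 in DS and 62.6 to 179 in CK.

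**Figure D4:**
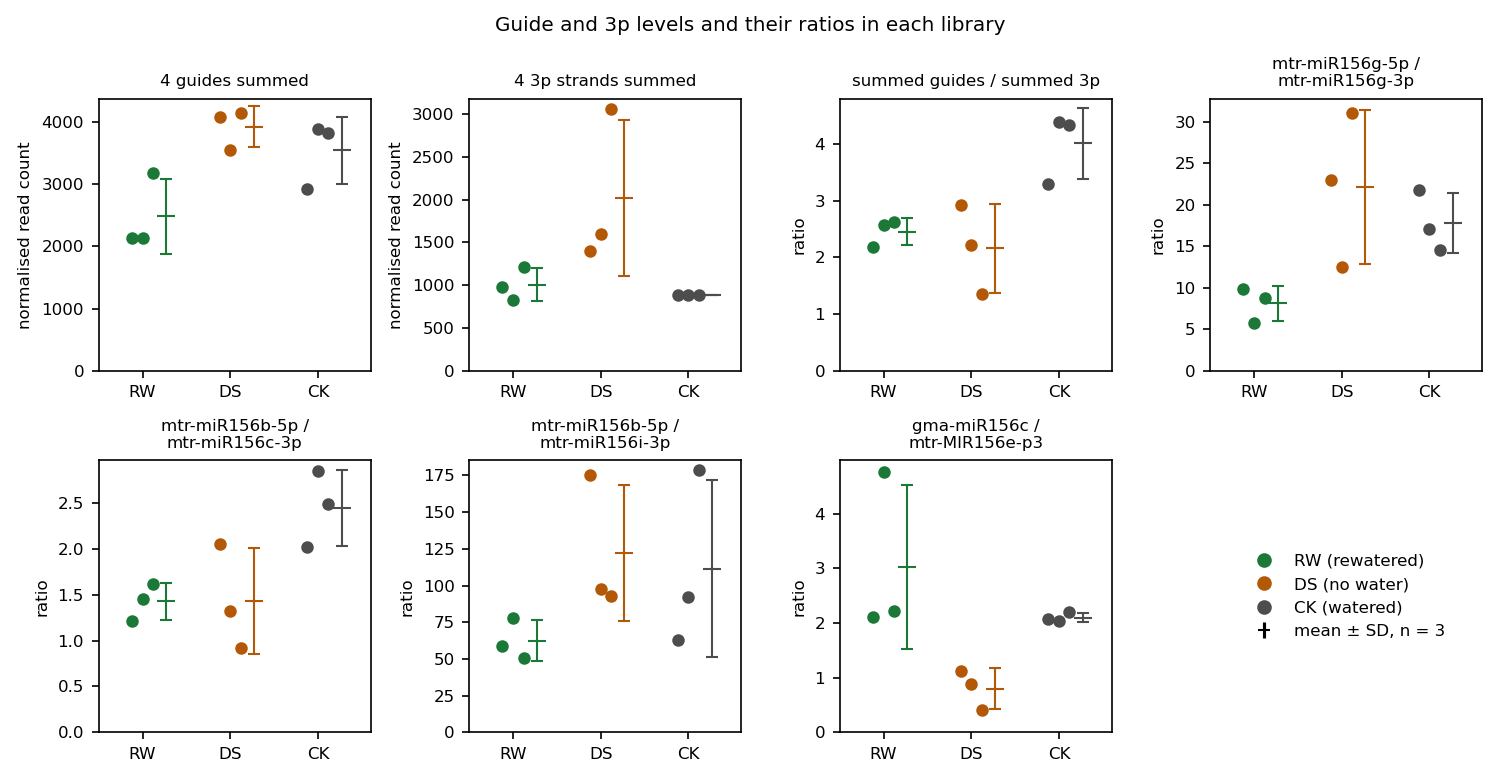
Summed levels of the 4 guides and the 4 3p strands (normalised read counts), their ratio, and the ratio of guide to 3p strand on each of 4 transcripts, in RW, DS and CK. Points are libraries, with the mean ± SD beside them (n = 3). The ratio of sums was 3.29 to 4.40 in CK and at most 2.92 in RW and DS, and the ratio of gma-miR156c to mtr-MIR156e-p3 was lowest in DS (0.402 to 1.13). With aly-miR156e-3p_L+1 in the 3p sum, which is not plotted, CK replicate 2 was 2.48, within the RW and DS ranges.

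The make-up of each arm was described in the same way. mtr-miR156g-5p took 42.9 to 44.5% of the guide sum in RW, 32.8 to 35.0% in DS and 40.02 to 44.3% in CK. Its share was lower in every DS library than in every RW and CK library. mtr-miR156b-5p took 42.9 to 47.2% in RW, 46.4 to 56.3% in DS and 44.7 to 49.3% in CK. On the 3p arm, mtr-miR156c-3p took 75.5 to 82.4% in all 9 libraries, a share that did not part the groups. mtr-MIR156e-p3 took 3.22 to 8.04% in RW, 14.7 to 17.7% in DS and 7.60 to 11.9% in CK, and DS stood above both other groups. mtr-miR156g-3p took 9.67 to 19.7% in RW, 1.52 to 6.24% in DS and 6.18 to 13.2% in CK, with RW above DS.

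The table held 4 other miRNAs named on both arms with names that differ only in the arm. For miR390a (lja), which starts trans-acting siRNA production, the ratio of 5p to 3p was 4.70 to 12.3 in RW, 10.6 to 23.7 in DS and 5.79 to 6.69 in CK. For miR171c (gma), which targets GRAS-family transcription factors through its 3p strand, it was 0.0784 to 0.105 in RW, 0.0562 to 0.0901 in DS and 0.0949 to 0.147 in CK. For miR396b (mtr), which targets GROWTH-REGULATING FACTOR genes, it was 164 to 332 in RW, 123 to 537 in DS and 175 to 247 in CK. The 3p strand of mtr-miR5559 was listed at 0 in 8 of the 9 libraries. The ratio was higher in every DS library than in every CK library for miR390a, whose guide is the 5p strand, and lower for miR171c, whose guide is the 3p strand.

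The 8 members correlated unevenly over the 9 libraries (Pearson r of log2 (value + 1), a description over libraries that share groups). mtr-MIR156e-p3 went with mtr-miR156c-3p (r = 0.87) and with mtr-miR156b-5p (r = 0.84), though it lies on a different transcript from both. With gma-miR156c, placed on the same transcript as mtr-MIR156e-p3, r was 0.69. mtr-miR156b-5p and mtr-miR156g-5p had r = 0.82. mtr-miR156g-3p had r below 0 with each of the other members, from -0.72 with mtr-MIR156e-p3 and -0.61 with mtr-miR156b-5p through -0.21 with its own guide mtr-miR156g-5p to -0.04 with gma-miR156b_L+1R-1. Outside the family, the names most like the summed guide level over the 9 libraries were PC-3p-54_81480 (r = 0.90), PC-3p-102950_40 (r = 0.84) and mtr-MIR160b-p5_2 (r = 0.82). Those most like the summed 3p level were lus-miR396b_R+1_1ss19CT (r = 0.83), gma-miR159a-3p_1ss21AT (r = 0.77) and ath-miR8175_L-2_1ss12AG (r = 0.76). Some of these names were low. PC-3p-102950_40 was listed at 0 in RW and in CK replicate 1 and at most at 10.1 elsewhere. mtr-MIR160b-p5_2 lay between 0 and 28.6, and ath-miR8175_L-2_1ss12AG between 1.57 and 90.1. All were picked as the highest r among the names tested.

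The 9 other names of families miR156 and miR157 were mostly low. gma-miR156a_R+1, which is mtr-miR156b-5p with 1 more base at its 3′ end, had 33.1, 24.5 and 32.1 in RW, 72.5, 25.3 and 39.3 in DS, and 48.0, 40.9 and 45.8 in CK. gma-miR156a_R+2, with 2 more bases, had 6.44 to 13.6 in RW, 8.93 to 15.8 in DS and 14.1 to 22.3 in CK. csi-MIR156c-p5_2ss3TA18TG was the highest of the 9 by its mean, with 148 to 231 in RW, 92.7 to 334 in DS and 17.7 to 67.4 in CK. It was the only one of the 5 tested that passed in any comparison, higher in RW vs. CK (2.24, SE 0.56, limma adjusted p = 0.0426), where 5.31% of all names tested passed. Its sequence matched its closest member at only 8 of 18 positions, and it lacks the runs shared by the guides or by the 3p strands.

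miR172, which represses AP2-type regulators and rises as miR156 declines with age, was listed under 10 names, of which 6 were tested and none passed in any comparison (limma, against 5.31, 5.31 and 2.36% of all names tested in DS vs. CK, RW vs. CK and RW vs. DS). Before adjustment 2 of the 6 had a limma p under 0.05 in DS vs. CK, none in RW vs. CK and 1 in RW vs. DS, against 19.5, 15.6 and 14.2% of all names. The 2 names in DS vs. CK were listed at 0 in every DS library and at most at 8.64 in any other. The smallest value above 0 in DS was 3.94 to 4.21, so these names lay close to the lowest values listed. The 1 in RW vs. DS was among them. mtr-miR172b, the most abundant, had 210.3, 257 and 263 in RW, 188, 154 and 146 in DS, and 133, 238 and 264 in CK. Every RW value was above every DS value (0.58, SE 0.33, limma adjusted p = 0.405). mtr-miR172d-3p_R+1 had 10.1 to 28.4 in RW, 8.93 to 22.1 in DS and 16.7 to 20.6 in CK. mtr-MIR172b-p5 and mtr-miR172a averaged 6.32 and 3.99 over the 9 libraries and were listed at 0 in some of them. Of miR529 and miR535, which share SPL targets with miR156, 1 name was listed, aqc-miR535_R-1, at 2.61 in CK replicate 1 and at 0 elsewhere.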

How the data were processed

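Per the methods, the authors removed adapters, low-complexity reads and common RNA families with ACGT101-miR (version not given in the sources used here), kept reads of 18 to 25 nt and matched them to miRBase precursors and to assembled transcripts, allowing length variation and 1 mismatch. The deposited values are a signal, for which the authors scaled the reads of every library by a constant whose choice is not stated. The smallest value above 0 was 5 steps of its library in 7 libraries, 4.67 in DS replicate 3 and 2.50 in CK replicate 1, so a step was not taken as 1 read and no counting interval is given. The methods' per-miRNA test was replaced by limma because groups have 3 libraries.

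The table held 667 lines and 595 names. Lines of 1 name were used once. A name was tested where 3 or more of the 9 libraries reached 5 (339 names). The log2 of each value plus 1 was fitted by limma (3.58.1, under R 4.3.3) with a mean-variance trend and 3 groups in 1 model, with Benjamini-Hochberg adjustment per comparison and a threshold of 0.05. Steps were fitted to values up to 30, of which 98.6 to 100% fell within 0.1 of a whole step. Duplexes came from RNAduplex 2.7.2, and summaries from Python 3.11.15 with pandas 2.3.3.

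The members and lists were chosen with earlier results of these data known. Named were the 8 members, up to 4 highest names of each list (other miR156 and miR157, miR172, miR529 and miR535), the 3 names most like each arm sum, and names differing only in -5p and -3p. aly-miR156e-3p_L+1 was added to sums after its values were seen. Degradome, mRNA and qRT-PCR data were not analysed here. Alternatives were other scalings, pseudocounts, filters, raised low values, a replicate block, 1 name per sequence, fits of the compared groups only, unadjusted p, and each library left out. The upper quartile over shared names was added after seeing the data.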

Additional observations from a re-analysis of the deposited data

How the results depend on the processing

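The DS values rest on the coarsest steps, and 3 libraries a group limit every comparison. Of all names tested, the count that passed in DS vs. CK was 18, and it was 175 with upper-quartile scaling over all names above 0, 66 before adjustment, 11 with only the groups compared, and 0 to 23 with 1 library left out (0 without CK replicate 1). In RW vs. CK it was 18, and 51, 53 and 29 with upper-quartile scaling, before adjustment and with low values raised to a common lowest value, and 5 to 22 with 1 library left out. In RW vs. DS it was 8, and 16, 48, 0 and 4 with upper-quartile scaling, before adjustment, with only the groups compared and with a minimum of 20, and 0 to 14 with 1 library left out. Of the 8 members, 0 passed in DS vs. CK, and 1 (mtr-MIR156e-p3, higher) with median-of-ratios scaling, a pseudocount of 5, a minimum of 20, raised low values or only the groups compared, 2 (both 3p strands above, higher) before adjustment or with the upper quartile over shared names, 4 (lower) with upper-quartile scaling, and 0 to 1 with 1 library left out. In RW vs. CK, 2 members passed with upper-quartile scaling and 1 before adjustment. In RW vs. DS, 1 passed, and 0 with upper-quartile scaling, with the table total or with only the groups compared, 5 before adjustment, and 0 to 1 with 1 library left out (0 without DS replicate 3, RW replicate 1 or RW replicate 2).

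With upper-quartile scaling the sign turned in DS vs. CK for mtr-miR156b-5p (-1.16), gma-miR156c (-1.17), gma-miR156b_L+1R-1 (-0.80), mtr-miR156c-3p (-0.32) and mtr-miR156i-3p (-1.30), in RW vs. CK for mtr-miR156g-3p (-0.12), mtr-miR156c-3p (-0.63) and mtr-miR156i-3p (-0.66), and in RW vs. DS for mtr-miR156g-5p (0.31) and gma-miR156c (0.12). By its construction this quartile moves with how many low values a library lists. Over shared names the sign turned for mtr-miR156g-5p in DS vs. CK (0.18) and gma-miR156c in RW vs. CK (0.13). With 1 library left out only mtr-miR156i-3p turned, with values of -0.29 to 0.30 in DS vs. CK, -0.26 to 0.40 in RW vs. CK and -0.31 to 0.33 in RW vs. DS. The mean guide to 3p ratio without 1 library was 2.37 to 2.596 in RW, 1.78 to 2.57 in DS and 3.82 to 4.37 in CK. Same-numbered libraries did not deviate together (r -0.154 to 0.058), so the numbers were not taken as pairs. With 3 libraries a group a low r cannot exclude pairing. With a replicate block 17, 18 and 7 names passed in DS vs. CK, RW vs. CK and RW vs. DS, and 0, 0 and 1 members.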
